A study of Homo sapiens with 9 samples.

Results

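The AP-1 and immediate early transcription factors are described here in LAN5, an established neuroblastoma cell line with MYCN amplification, after knockdown of MYCN or of HAND2. The 10 genes, FOS, FOSB, FOSL1, FOSL2, JUN, JUNB, JUND, ATF3, EGR1 and IER2, were chosen by name and are 10 of the 25084 genes of the deposited table. RNA was taken 72 h after small interfering RNAs (siRNAs) had been delivered by nucleofection, a form of electroporation, and sequenced in 9 libraries. A control (siCTR) was given in 3 libraries, an siRNA to MYCN (labelled siMYCN_2) in 3 and one to HAND2 (labelled siHAND2_3) in 3, so each target was lowered with the siRNA of 1 label. Nothing says whether the 3 libraries of a group came from separate cultures, so p-values measure only the spread between these libraries, which may be technical.

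AP-1 is a dimer of basic leucine zipper proteins. JUN, JUNB and JUND can pair with themselves or with the FOS proteins (FOS, FOSB, FOSL1 and FOSL2), whereas the FOS proteins need a JUN partner, and ATF3 pairs with itself or with JUN proteins. The genes FOS, FOSB, JUN, JUNB, EGR1, ATF3 and IER2 are immediate early genes: growth factors, depolarisation or stress switch them on within minutes, without new protein synthesis, and most of their transcripts are short-lived. In cells of the sympathetic neuron lineage these factors are known for coupling receptor signals, such as those of nerve growth factor, to differentiation or to stress responses. JUND and FOSL2 are known for steadier levels in unstimulated cells.

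Values are CPM, a gene's reads relative to all assigned reads of its library, and the smallest step between low values put the libraries at 21.1 M to 32.7 M assigned reads. MYCN itself stood at 69.98% of its siCTR mean in siMYCN and at 49.6% in siHAND2, and HAND2 at 113.9% and 54.2%. Both targets thus kept part of their transcript, and MYCN was lowest in the siHAND2 libraries, not in siMYCN. Changes are differences of log2(CPM + 1), which understate the change of genes near 1 CPM, and were tested with limma over the 14495 genes that reached 1 CPM in 3 or more libraries, with Benjamini-Hochberg adjustment and a threshold of 0.05. Of the 10 factors, 8 passed that filter, and FOSB and FOSL1 did not. In this test MYCN was lower in siHAND2 than in siMYCN (-0.50, adjusted p = 6.21e-07). HAND2 was higher in siMYCN than in siCTR (0.19, adjusted p = 0.00183). In bulk RNA, fewer cells with a transcript and less transcript per cell cannot be told apart.

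The 250 bases upstream of the start site are shown for FOS, JUN, JUND, EGR1 and IER2. These are the 5 genes called in a comparison with siCTR. Some of the sites through which such genes are induced lie this close to the start, and sites farther upstream were not searched. The sequences are from RefSeq (GRCh38.p14), which held 9 of the 10 genes in 10 windows (2 starts for ATF3), and run 5′ to 3′ on the gene's strand. Capitals mark matches, on either strand, to any of 7 motifs. These are TGACGT, the core of the response element for cyclic AMP signals, and TGACNTCA, an element of ATF and JUN proteins that can hold it. TGANTCA is the AP-1 element proper. The CArG box is bound by serum response factor, and GCGNGGGCG by EGR1. CACGTG is the E-box of MYC proteins, and CATCTG is an E-box of other helix-loop-helix factors.
FOS (chr14:75278578-75278827, plus strand): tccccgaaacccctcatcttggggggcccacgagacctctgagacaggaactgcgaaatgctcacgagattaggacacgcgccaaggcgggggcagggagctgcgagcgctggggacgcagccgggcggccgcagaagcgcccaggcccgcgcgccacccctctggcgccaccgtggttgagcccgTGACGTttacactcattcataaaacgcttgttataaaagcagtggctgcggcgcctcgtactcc
JUN (chr1:58784048-58784297, minus strand): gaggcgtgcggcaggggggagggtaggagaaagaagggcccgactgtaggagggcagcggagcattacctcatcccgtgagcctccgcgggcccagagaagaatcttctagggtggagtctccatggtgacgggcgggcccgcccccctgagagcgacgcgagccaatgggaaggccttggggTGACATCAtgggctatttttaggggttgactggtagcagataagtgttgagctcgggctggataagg
JUND (chr19:18281623-18281872, minus strand): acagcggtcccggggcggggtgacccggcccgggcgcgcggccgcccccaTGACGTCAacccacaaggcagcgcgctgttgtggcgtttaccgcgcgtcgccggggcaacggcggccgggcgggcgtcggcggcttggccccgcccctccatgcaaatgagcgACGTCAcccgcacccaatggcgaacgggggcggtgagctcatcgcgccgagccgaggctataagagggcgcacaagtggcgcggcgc
EGR1 (chr5:138465229-138465478, plus strand): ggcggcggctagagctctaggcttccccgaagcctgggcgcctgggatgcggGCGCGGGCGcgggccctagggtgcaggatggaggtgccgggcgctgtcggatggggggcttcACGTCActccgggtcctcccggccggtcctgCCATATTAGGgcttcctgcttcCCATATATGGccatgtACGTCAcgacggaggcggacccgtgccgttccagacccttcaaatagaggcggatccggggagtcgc
IER2 (chr19:13150161-13150410, plus strand): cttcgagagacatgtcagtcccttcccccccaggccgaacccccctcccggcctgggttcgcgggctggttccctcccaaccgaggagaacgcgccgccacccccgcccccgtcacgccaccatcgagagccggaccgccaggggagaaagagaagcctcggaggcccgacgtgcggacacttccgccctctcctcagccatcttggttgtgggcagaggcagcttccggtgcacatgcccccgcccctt

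Counts are genes with a match in any window, and the share over all promoters is per window. TGACGT was found upstream of 5 of the 9 genes (FOS, FOSB, FOSL2, JUND and EGR1) and in 7.10% of all 35116 RefSeq promoters of the same length. In FOS, FOSL2 and FOSB it lay at a like distance, with its first base 64, 66 and 60 bases upstream of the RefSeq start. For FOSL2 that start lies inside the gene as the deposited table places it: the window is chr2:28392608-28392857 and the table's gene begins at 28392448. TGACNTCA was found in 3 of the 9 (JUN, JUND and ATF3) and in 6.87% of all promoters. It read TGACATCA 67 to 60 bases upstream of JUN and 123 to 116 bases upstream of an ATF3 start, and TGACGTCA in JUND. EGR1 held 2 CArG boxes, 105 to 96 and 83 to 74 bases upstream, a motif found in 1.16% of all promoters and in none of the other genes' windows. Since only 250 bases were searched, FOS or another gene without a match here may hold the motif farther upstream. TGANTCA (6.57% of all promoters) and CACGTG (6.34%) were found in 0 of the 9, CATCTG (12.2%) in ATF3 alone and GCGNGGGCG (8.41%) in EGR1 alone. No match to these motifs was found in the IER2 and JUNB windows. A match is a description of the letters, and the data hold no measure of binding.

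By the GENCODE canonical transcript, JUN, JUNB and JUND have a single exon, as do 2.35% of the 11972 tested protein-coding genes, and EGR1 and IER2 have 2 exons where the median tested protein-coding gene has 9. FOSB, JUNB, JUND and IER2, 4 of the 10, lie on chromosome 19. The G and C content of the 10 transcripts ran from 50.4% (ATF3) to 69.9% (JUND), all above the median of 48.2% over tested genes. FOSB lies wholly within ERCC1 and JUNB wholly within HOOK2, both on the other strand, and the strand rule of the counting is not given in the sources used here. ERCC1 had a mean of 69.2 CPM where FOSB had 0.159, and HOOK2 a mean of 13.999 CPM where JUNB had 18.9.

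Levels of different genes were compared as CPM per kilobase (kb) of that transcript. In siCTR JUND was highest, at 21.9 ± 2.37 CPM per kb, followed by JUN at 13.7 ± 0.58, IER2 at 11.8 ± 0.067 and JUNB at 10.7 ± 0.77 (SD, n = 3 libraries each). FOSL2 followed at 5.28 ± 0.24 CPM per kb, ATF3 at 2.65 ± 0.070 and FOS at 1.04 ± 0.096. The lowest were FOSL1 (0.57 ± 0.058), EGR1 (0.54 ± 0.14) and FOSB (0.048 ± 0.0096). No neighbours in this order overlapped between libraries, except FOSL1 and EGR1. JUND, JUN, JUNB and FOSL2 were the most abundant AP-1 transcripts. In siHAND2 JUN moved up to 20.4 ± 2.35 CPM per kb, where its range of 18.1 to 22.8 overlapped that of JUND (20.8 to 25.5).

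**Figure D1:**
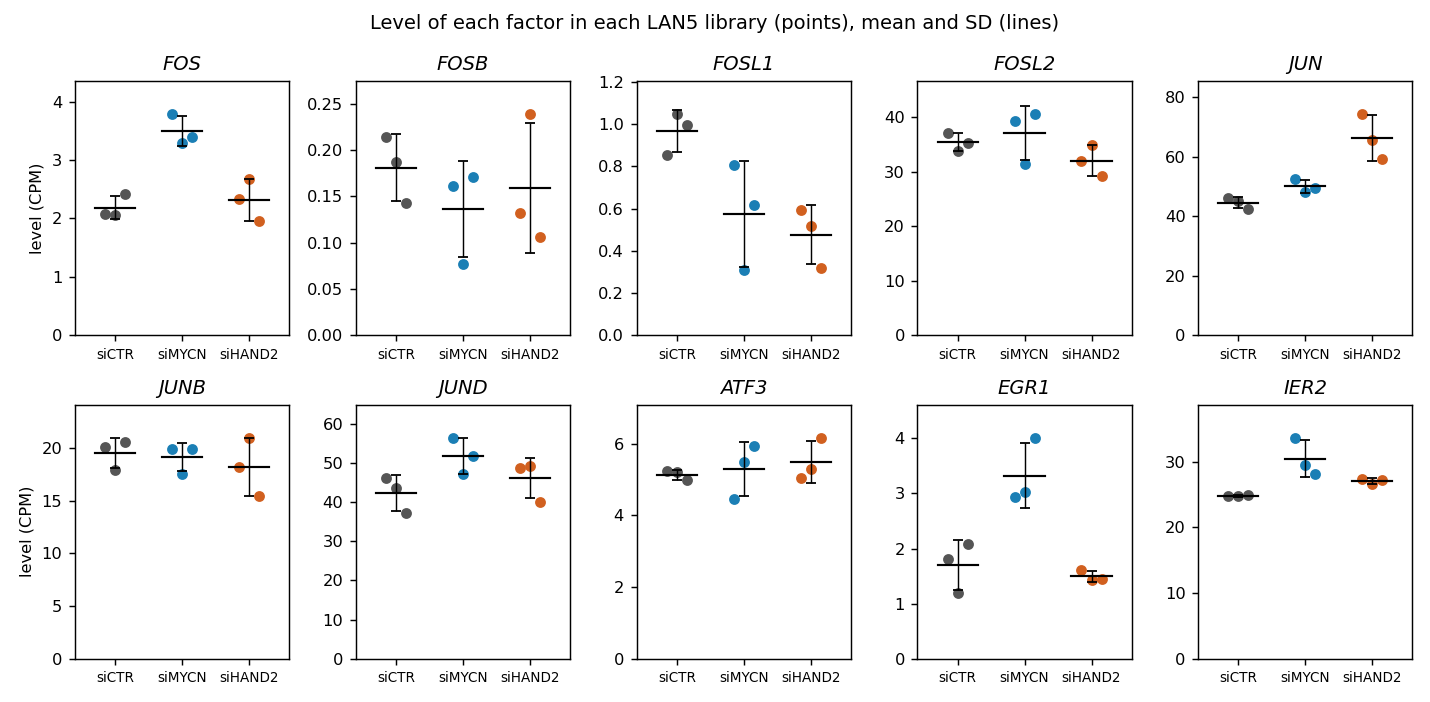
Level of each of the 10 factors (CPM, axis from 0) in the 9 LAN5 libraries, by siRNA. Points are libraries, the long line is the group mean and the bars are SD (n = 3). FOS and EGR1 stand apart in siMYCN and JUN in siHAND2, while FOSB stays below 0.25 CPM in every library.

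FOS (chromosome 14, 75278826 to 75282230), the founding FOS protein and a classic marker of recent stimulation, was higher in siMYCN. It measured 2.08, 2.06 and 2.42 CPM with siCTR, 3.79, 3.298 and 3.39 with siMYCN and 2.34, 2.67 and 1.95 with siHAND2. All siMYCN libraries lay above all others, and siHAND2 overlapped siCTR. The siMYCN mean was 159.7% of the siCTR mean, and the log2 fold change was 0.50 (standard error 0.11, adjusted p = 0.00249). In siHAND2 it was 0.05 (95% interval -0.18 to 0.29, adjusted p = 0.75), a value whose sign turned with quantile normalization. Set against siMYCN, FOS was lower in siHAND2 (-0.44, adjusted p = 0.00717). These levels rest on few reads, 51 to 68 per siCTR library and 86 to 99 per siMYCN library.

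FOSB (chromosome 19, 45467995 to 45475179), a close relative of FOS, was at the edge of detection, between 0.0768 and 0.239 CPM, or 2 to 7 reads per library. At this depth no difference between groups was detectable, and the groups overlapped in every comparison.

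FOSL1 (chromosome 11, 65892049 to 65900573), whose protein FRA1 is known from mesenchymal and invasive tumour cells, was low in every group. It measured 0.856, 1.05 and 0.997 CPM with siCTR, 0.806, 0.307 and 0.617 with siMYCN and 0.592, 0.518 and 0.319 with siHAND2. Every knockdown library lay below every siCTR library. The means were 59.6% (siMYCN) and 49.3% (siHAND2) of the siCTR mean, from 21 to 28 reads per siCTR library, 8 to 20 in siMYCN and 9 to 18 in siHAND2. FOSL1 was not part of the main test. With no filter on low values, and adjustment over all 25084 genes, it was at -0.33 in siMYCN, which did not pass the threshold (adjusted p = 0.0653), and at -0.42 in siHAND2, which did (adjusted p = 0.0241), and siHAND2 did not differ from siMYCN past the threshold (-0.09, interval -0.34 to 0.16, adjusted p = 0.71).

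FOSL2 (chromosome 2, 28392448 to 28417317), whose protein FRA2 is the steady FOS relative, held most of the FOS family. It measured 37.2, 33.9 and 35.3 CPM with siCTR, 39.3, 31.5 and 40.6 with siMYCN and 32.1, 34.9 and 29.2 with siHAND2. The 3 groups overlapped. No comparison passed the threshold, at 0.06 in siMYCN (interval -0.12 to 0.23), -0.14 in siHAND2 (-0.32 to 0.03) and -0.20 between the knockdowns (adjusted p = 0.0868). Without siMYCN replicate 2, its lowest siMYCN library, the last value was -0.31 (adjusted p = 0.00608).

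JUN (chromosome 1, 58780791 to 58784047), the partner that AP-1 dimers are usually built on and a target of the JNK kinases, was the tested factor that changed after HAND2 knockdown. It measured 46.1, 45.0 and 42.4 CPM with siCTR, 52.5, 48.2 and 49.6 with siMYCN and 74.3, 65.7 and 59.1 with siHAND2. The 3 groups did not overlap, in the order siCTR, siMYCN, siHAND2. JUN rose in siHAND2 by a log2 fold change of 0.56 (standard error 0.07, adjusted p = 1.06e-05), where its mean was 149.1% of that of siCTR. In siMYCN the difference was 0.17 (interval 0.02 to 0.31, adjusted p = 0.0668), which did not pass the threshold, although it did in a fit of those 2 groups alone (adjusted p = 0.0140) and without siHAND2 replicate 1 or 3 (adjusted p = 0.0260 and 0.0191). With the replicate number as a block it also passed (adjusted p = 0.0136). The knockdowns differed by 0.39 (adjusted p = 0.000358). Among the windows printed above, that of JUN is the one with TGACATCA. ATF3, whose window is not printed and which was called in no comparison, held the same letters.

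JUNB (chromosome 19, 12791486 to 12793315), often a brake on JUN, did not pass the threshold in any comparison. It measured 20.1, 17.9 and 20.5 CPM with siCTR, 19.9, 17.6 and 19.9 with siMYCN and 18.2, 20.9 and 15.4 with siHAND2. The groups overlapped throughout, with log2 fold changes of -0.03 in siMYCN (interval -0.22 to 0.16) and -0.11 in siHAND2 (-0.30 to 0.09). The sign of each turned when single libraries were left out.

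JUND (chromosome 19, 18279694 to 18281622), the steady JUN relative, measured 46.2, 43.5 and 37.3 CPM with siCTR, 56.3, 47.2 and 51.6 with siMYCN and 48.7, 49.1 and 40.1 with siHAND2. The siMYCN libraries lay above the siCTR libraries, the nearest pair at 47.2 and 46.2 CPM. JUND rose by 0.28 in siMYCN (standard error 0.09, adjusted p = 0.0165) and was at 0.12 in siHAND2 (interval -0.07 to 0.30, adjusted p = 0.34). The siMYCN call was lost after median-ratio rescaling (0.23), quantile normalization (0.23), with no intensity trend, without siCTR replicate 3 (0.20) and without siMYCN replicate 1 (0.22). GC classes were taken among tested genes with a known transcript that averaged 5 CPM or more. The 1069 richest in G and C (from 61.3%), among which JUND, JUNB and IER2 stand, had a median log2 fold change of 0.13 in siMYCN, against 0.03 in the 1069 poorest. Between the knockdowns (siHAND2 less siMYCN) these medians were -0.12 and 0.04. The part of base composition in the JUND values was not tested.

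Within the JUN family, scaled by length, JUN made up 28.8% to 29.9% in siCTR, 28.7% to 30.3% in siMYCN and 35.3% to 39.3% in siHAND2. Its share was thus higher in every siHAND2 library than in any other. JUND made up 44.4% to 48.8%, 50.1% to 52.0% and 43.5% to 44.6% in the same groups, and the total of the family was 46.3 ± 2.76, 52.6 ± 3.66 and 54.1 ± 5.89 CPM per kb (SD, n = 3 libraries each). In the FOS family FOSL2 held 71.6% to 79.2% over the 9 libraries. The share of FOS was 13.9% to 16.4% in siCTR, 19.98% to 24.3% in siMYCN and 16.9% to 18.5% in siHAND2.

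**Figure D2:**
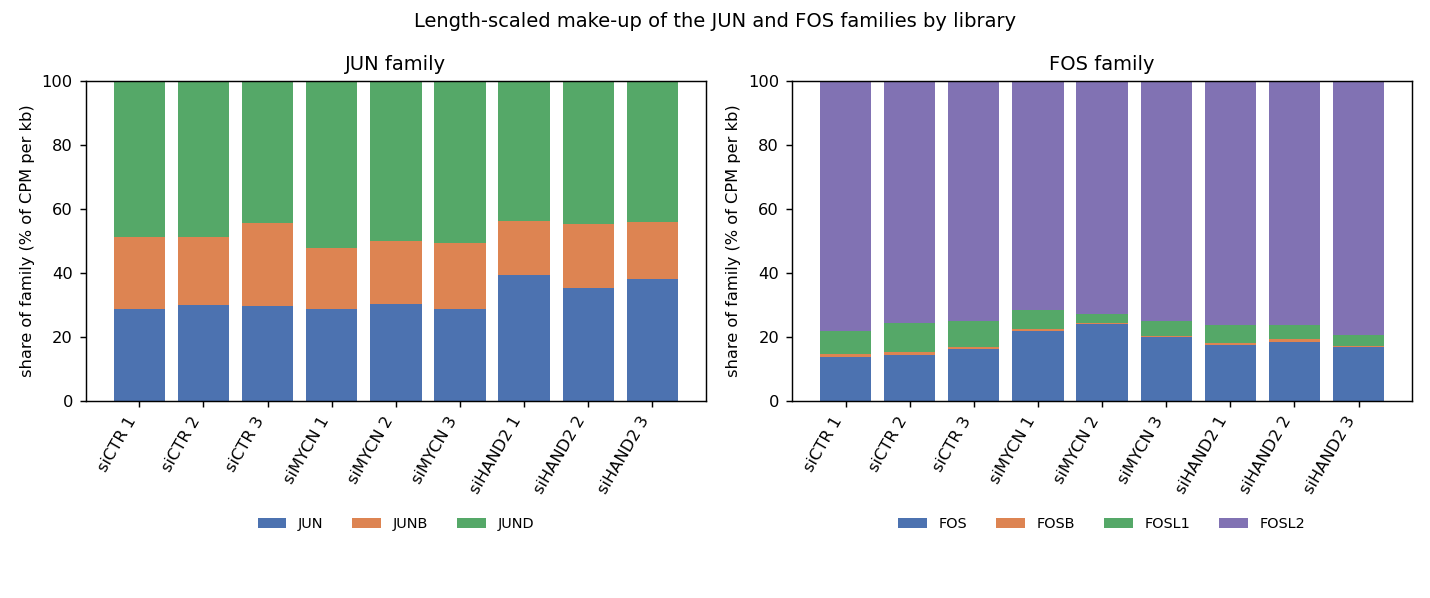
Make-up of the JUN family (left) and FOS family (right) in each library, as percent of the summed CPM per kb of transcript; each bar is 1 library and adds up to the whole family. JUN takes 35.3% or more of its family in the siHAND2 libraries and 30.3% or less in the others, and FOSL2 takes most of the FOS family in every library.

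ATF3 (chromosome 1, 212565334 to 212620777), a stress-induced repressor of the ATF family, measured 5.23, 5.20 and 4.98 CPM with siCTR, 4.47, 5.48 and 5.93 with siMYCN and 5.03, 5.30 and 6.16 with siHAND2. The groups overlapped. The log2 fold change was 0.03 in siMYCN (interval -0.19 to 0.25) and 0.08 in siHAND2 (-0.14 to 0.30), and that in siMYCN was negative after median-ratio rescaling (-0.02) and quantile normalization (-0.05).

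EGR1 (chromosome 5, 138465479 to 138469303), a zinc finger factor switched on through serum response factor and the ERK kinases, had the largest change of the 8 tested factors in siMYCN. It measured 1.80, 1.198 and 2.09 CPM with siCTR, 2.94, 3.03 and 4.01 with siMYCN and 1.61, 1.43 and 1.45 with siHAND2. All siMYCN libraries lay above all others, and siHAND2 lay within the range of siCTR. The siMYCN mean was 196.1% of the siCTR mean, a log2 fold change of 0.69 (standard error 0.14, adjusted p = 0.000977). With a pseudocount of 0.1 it was 0.95. In siHAND2 it was -0.10 (interval -0.39 to 0.19, adjusted p = 0.64), and the knockdowns differed by -0.78 (adjusted p = 0.000378). These values stand on 32 to 59 reads per siCTR library and 73 to 117 per siMYCN library. Among the windows printed above, EGR1 is the one with CArG boxes.

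IER2 (chromosome 19, 13150411 to 13154911), an immediate early nuclear protein, had the smallest spread of the 10 factors in siCTR, at 24.7, 24.7 and 24.96 CPM. At 809, 660 and 526 reads, a spread of 0.57% of the mean is below the error of counting. It is thus not read as steadiness of the gene. With siMYCN IER2 measured 33.6, 29.5 and 28.2 CPM and with siHAND2 27.4, 26.6 and 27.2. The 3 groups did not overlap, in the order siCTR, siHAND2, siMYCN. IER2 rose by 0.28 in siMYCN (standard error 0.06, adjusted p = 0.00229). The siHAND2 difference of 0.12 (interval -0.01 to 0.26, adjusted p = 0.15) and the difference between the knockdowns of -0.16 (adjusted p = 0.0712) did not pass, although the latter did without siMYCN replicate 3 (-0.21, adjusted p = 0.0331). IER2 is at the 93.0 percentile of tested genes in G and C content, and the same GC medians stand beside its value, their part in it not tested.

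**Figure D3:**
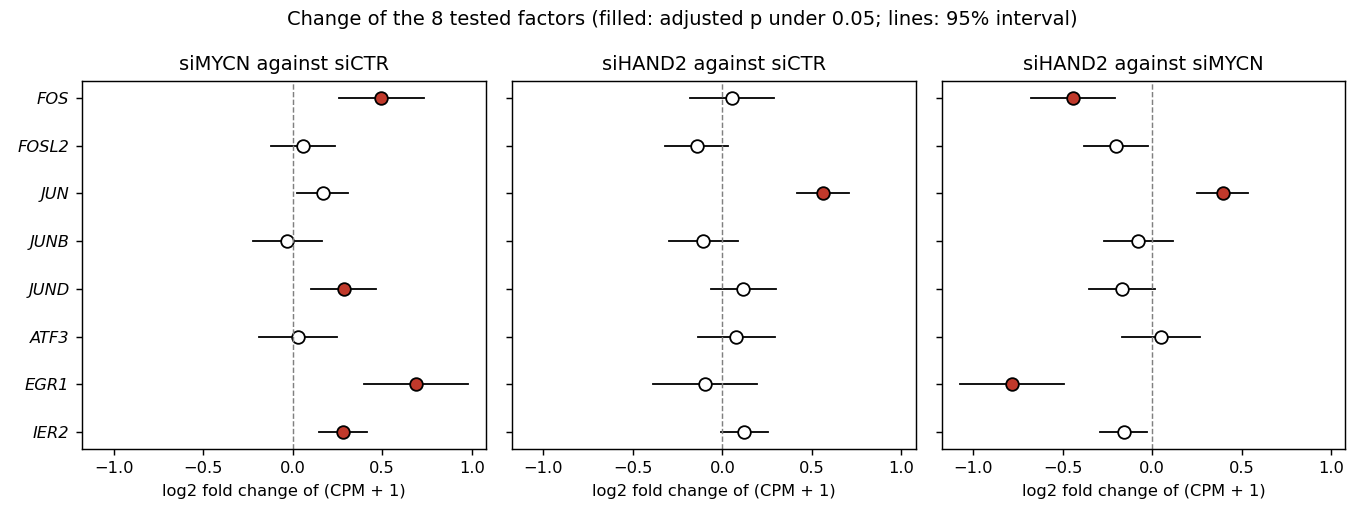
Log2 fold change of (CPM + 1) of the 8 tested factors in the 3 comparisons; points are estimates, lines 95% intervals of limma, and filled points have an adjusted p under 0.05. FOS, JUND, EGR1 and IER2 are filled in siMYCN and JUN alone in siHAND2, and FOS, JUN and EGR1 are filled in the direct comparison.

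Counted over the 8 tested factors, 4 rose in siMYCN (FOS, JUND, EGR1 and IER2) and the other 4 did not pass, where 35.9% of all 14495 genes were called, 24.5% as higher and 11.4% as lower. In siHAND2 JUN rose and the other 7 did not pass, where 29.9% of all genes were called, 18.1% as higher and 11.8% as lower. Between the knockdowns 3 were called, JUN higher and FOS and EGR1 lower in siHAND2, where 26.9% of all genes were called, 11.4% as higher and 15.5% as lower. Groups did not overlap for 5, 2 and 4 of the 8 in these comparisons, where the background was 49.5%, 42.4% and 38.7% of all genes. The called factors all had groups that did not overlap, and the share of all genes that were both called and without overlap was 35%, 28.9% and 25.9%. With so many genes called, 4, 1 and 3 of 8 are not read as a result about the factors as a set. Among all log2 fold changes, EGR1 stood at the 98.9 percentile and FOS at the 96.6 percentile in siMYCN, and JUN at the 97.2 percentile in siHAND2. Both comparisons with siCTR share the same control libraries.

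The other genes of the pathway were taken from lists of related genes, whose counts are set beside the share of all tested genes called in the same direction. Of 11 tested AP-1 partners and relatives, 5 rose and 6 did not pass in siMYCN (24.5% of all genes higher; median log2 fold change 0.11, against 0.06 over all tested genes). In siHAND2 2 rose and 2 fell (18.1% of all genes higher, 11.8% lower; median 0.01, against 0.04). CREB5, a factor that binds cAMP response elements and pairs with JUN, went from 17.9 ± 0.40 CPM in siCTR to 22.3 ± 1.14 in siMYCN and 28.3 ± 1.88 in siHAND2 (log2 fold changes 0.30 and 0.63, adjusted p = 0.00157 and 1.19e-06). The direct comparison put CREB5 0.33 higher in siHAND2 (adjusted p = 0.000835). MAFF, a small MAF protein without an activation domain, was higher in siMYCN and lower in siHAND2, from 8.55 ± 0.55 to 10.7 ± 1.18 in siMYCN (0.29, adjusted p = 0.0179) and to 6.30 ± 0.52 CPM in siHAND2 (-0.39, adjusted p = 0.00371). The count of 5 was 3 with quantile normalization, with no filter and without siCTR replicate 3 or siMYCN replicate 3. The MAFF call in siMYCN was lost with quantile normalization, without the filter, without siCTR replicate 3 and without siMYCN replicate 3, with values from 0.21 to 0.34 over the alternatives. NFE2L1, a stress-responsive basic leucine zipper factor, rose by 0.24 in siMYCN (adjusted p = 0.00212). JDP2, a repressor that pairs with JUN, changed by -0.31 in siHAND2 (adjusted p = 0.0469), a call lost in 8 of 19 alternatives, and lay below siMYCN (-0.57, adjusted p = 0.000989), as did MAFF (-0.68, adjusted p = 2.38e-05) and NFE2L1 (-0.24, adjusted p = 0.00342).

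Of 23 tested genes in a list of other immediate early genes, 9 rose and 2 fell in siMYCN, where 24.5% of all genes were higher and 11.4% lower (medians 0.13 and 0.06). In siHAND2 9 rose and 4 fell, where 18.1% of all genes were higher and 11.8% lower (medians 0.10 and 0.04). The 9 higher in siMYCN were 5 with median-ratio rescaling and 4 with quantile normalization. SGK1, a kinase gene induced by serum and glucocorticoids, went from 7.59 ± 0.99 CPM in siCTR to 19.6 ± 1.98 in siMYCN and 9.99 ± 0.29 in siHAND2 (1.26 and 0.36, adjusted p = 6.01e-08 and 0.00606). PPP1R15A, a stress-induced phosphatase subunit, rose by 0.44 in siMYCN (adjusted p = 0.000138) and by 0.24 in siHAND2 (adjusted p = 0.0156, lost in 3 of 19 alternatives). DUSP1, which switches off MAP kinases, rose by 0.26 in siMYCN (adjusted p = 0.00912, lost with quantile normalization). ARC, the immediate early gene of active synapses, fell in siHAND2 from 8.33 ± 0.58 to 4.30 ± 0.16 CPM (-0.82, adjusted p = 1.37e-06) and stood at 8.15 ± 0.40 CPM in siMYCN. ID1, an inhibitor of helix-loop-helix factors, rose in siHAND2 from 7.88 ± 1.27 to 13.4 ± 1.88 CPM (0.69, adjusted p = 0.000364), and IER5L rose by 0.43 (adjusted p = 0.00637). The clock repressor PER1 fell in both knockdowns, in siMYCN (-0.31, adjusted p = 0.0165, lost without siCTR replicate 2 or siMYCN replicate 2) and in siHAND2 (-0.46, adjusted p = 0.00161). TRIB1 was at -0.22 and -0.24 (adjusted p = 0.0206 and 0.0160), calls lost in 4 and 3 of the fits that left out 1 library. Between the knockdowns, siHAND2 less siMYCN was -0.90 for SGK1 (adjusted p = 9.87e-07), -0.79 for ARC (adjusted p = 1.81e-06), -0.45 for the stress gene GADD45A (adjusted p = 6.92e-05), 0.60 for IER5L (adjusted p = 0.000513), 0.52 for ID1 (adjusted p = 0.00366) and 0.19 for BTG1 (adjusted p = 0.00642).

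Upstream of the factors, 11 of 19 tested kinase genes rose and 8 did not pass in siMYCN (24.5% of all genes higher; median 0.20, against 0.06). In siHAND2 4 rose and 2 fell (18.1% of all genes higher, 11.8% lower; median 0.05, against 0.04). With a replicate block 7 rose in siHAND2, in a fit that called 35.1% of all genes in either direction, against 29.9% in the main fit. The 11 were 7 with median-ratio rescaling and without siCTR replicate 2 or siMYCN replicate 3, and 6 with quantile normalization. MAPK9, which encodes a JNK kinase, rose from 35.4 ± 1.28 to 46.1 ± 2.04 CPM in siMYCN (0.37, adjusted p = 0.000158), and MAP2K4, which activates JNK, by 0.30 (adjusted p = 0.000717). In siHAND2 MAP2K4 was at 0.17 (adjusted p = 0.0334), a call lost in 8 of 19 alternatives. RPS6KA2, a kinase of the RSK family below ERK, rose by 0.31 in siMYCN (adjusted p = 4.61e-05) and fell in siHAND2 (-0.40, adjusted p = 2.99e-06), from 80.9 ± 3.01 CPM in siCTR to 101 ± 0.58 and 60.9 ± 1.65. MAP3K1, a JNK pathway kinase, rose in siMYCN from 595 ± 26.5 to 729 ± 32.1 CPM (0.29, adjusted p = 0.000140) and fell in siHAND2 to 474 ± 16.2 (-0.33, adjusted p = 5.35e-05). MAPK8, which encodes another JNK kinase, rose by 0.24 in siMYCN and by 0.19 in siHAND2 (adjusted p = 0.000418 and 0.00323). BRAF rose by 0.22 and 0.28 (adjusted p = 0.0183 and 0.00556), the first lost in 6 of 19 alternatives. MAPK14, which encodes p38 alpha, rose by 0.20 in siHAND2 (adjusted p = 0.00324) and was at -0.02 in siMYCN (adjusted p = 0.76). The direct comparison gave -0.72 for RPS6KA2 (adjusted p = 2.39e-09), -0.62 for MAP3K1 (adjusted p = 2.92e-08), -0.26 for MAPK9 (adjusted p = 0.00348) and 0.22 for MAPK14 (adjusted p = 0.00155).

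Of 15 tested upstream transcription factors, 7 rose and 1 fell in siMYCN (24.5% of all genes higher, 11.4% lower; median 0.12, against 0.06). In siHAND2 3 rose and 12 did not pass (18.1% of all genes higher; median 0.08, against 0.04), a share near the background. The 7 were 2 with median-ratio rescaling or quantile normalization, and 4 with no intensity trend or without siCTR replicate 1, 2 or 3 or siMYCN replicate 3. CRTC1, a coactivator of CREB, went from 8.15 ± 0.40 to 10.4 ± 0.17 CPM in siMYCN (0.31, adjusted p = 0.00567) and to 10.9 ± 1.02 in siHAND2 (0.38, adjusted p = 0.00178). MRTFB, a coactivator of serum response factor, rose by 0.28 in siHAND2 (adjusted p = 0.00560) and by 0.20 in siMYCN (adjusted p = 0.0313), the latter lost in 7 of 19 alternatives. Calls of smaller or less even changes, for MRTFA (0.28), MEF2D (0.26) and ELK3 (-0.15) in siMYCN and for CREB1 (0.17 in both knockdowns), were each lost in 5 to 7 of 19 alternatives. Among 9 repressors and turnover factors (medians 0.11 in both knockdowns), 2 rose in siMYCN (24.5% of all genes higher). They were the ubiquitin ligase COP1, which targets JUN protein (0.22, adjusted p = 0.00345), and the EGR1 corepressor NAB2 (0.23, adjusted p = 0.0136). With a replicate block 4 rose, in a fit that called 40.7% of all genes in either direction, against 35.9% in the main fit. In siHAND2 1 rose (18.1% of all genes higher), again COP1, by 0.18 (adjusted p = 0.0147). That call was lost without siCTR replicate 1 or 2, with values from 0.13 to 0.21 over the alternatives. With a replicate block 3 rose in siHAND2, where that fit called 35.1% of all genes and the main fit 29.9%. The NAB2 call was lost in 4 of 19 alternatives, both other scalings among them. DET1, a partner of COP1, stood 0.31 higher in siHAND2 than in siMYCN (adjusted p = 0.0227, lost in 4 of 19).

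Of 13 tested genes from a list of known AP-1 targets, 7 rose and 1 fell in siMYCN (24.5% of all genes higher, 11.4% lower; median 0.30, against 0.06). In siHAND2 5 rose and 2 fell (18.1% of all genes higher, 11.8% lower; median -0.01, against 0.04). The 2 that fell were 4 with either other scaling and without siHAND2 replicate 3. The cyclin gene CCND1 went from 994 ± 46.1 CPM to 1384 ± 96.1 in siMYCN and 1394 ± 90.1 in siHAND2 (0.47 and 0.49, adjusted p = 1.15e-05 and 8.92e-06). FN1, which encodes fibronectin, rose by 0.45 and 0.66 (adjusted p = 3.61e-05 and 4.86e-07), and the intermediate filament gene VIM by 0.41 and 0.94 (adjusted p = 8.60e-06 and 4.76e-10). LOX, a collagen cross-linking enzyme, fell in both, from 17.1 ± 1.01 to 8.98 ± 0.53 and 10.3 ± 1.19 CPM (-0.86 and -0.68, adjusted p = 1.21e-06 and 1.22e-05). In siHAND2 the urokinase receptor gene PLAUR rose by 0.49 (adjusted p = 0.000217), and the adhesion receptor gene CD44 changed by -0.39 (adjusted p = 0.00794). Between the knockdowns VIM (0.54, adjusted p = 3.11e-07), PLAUR (0.37, adjusted p = 0.00245) and FN1 (0.21, adjusted p = 0.0159, lost in 3 of 19 alternatives) were higher in siHAND2, and the protease inhibitor gene TIMP3 was lower (-0.37, adjusted p = 1.52e-05). FN1, VIM, CD44 and DCN also stand in the list of mesenchymal markers.

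MYC and DCN average under 5 CPM, lie outside the rule for naming and were chosen after their values were seen. In siHAND2 MYC, the paralogue of MYCN, rose by 1.88 (adjusted p = 3.11e-08), and DCN, which encodes the matrix proteoglycan decorin, rose by 3.07 (adjusted p = 1.26e-11). In siMYCN they rose by 0.90 and 0.68 (adjusted p = 9.14e-05 and 0.000246).

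**Figure D4:**
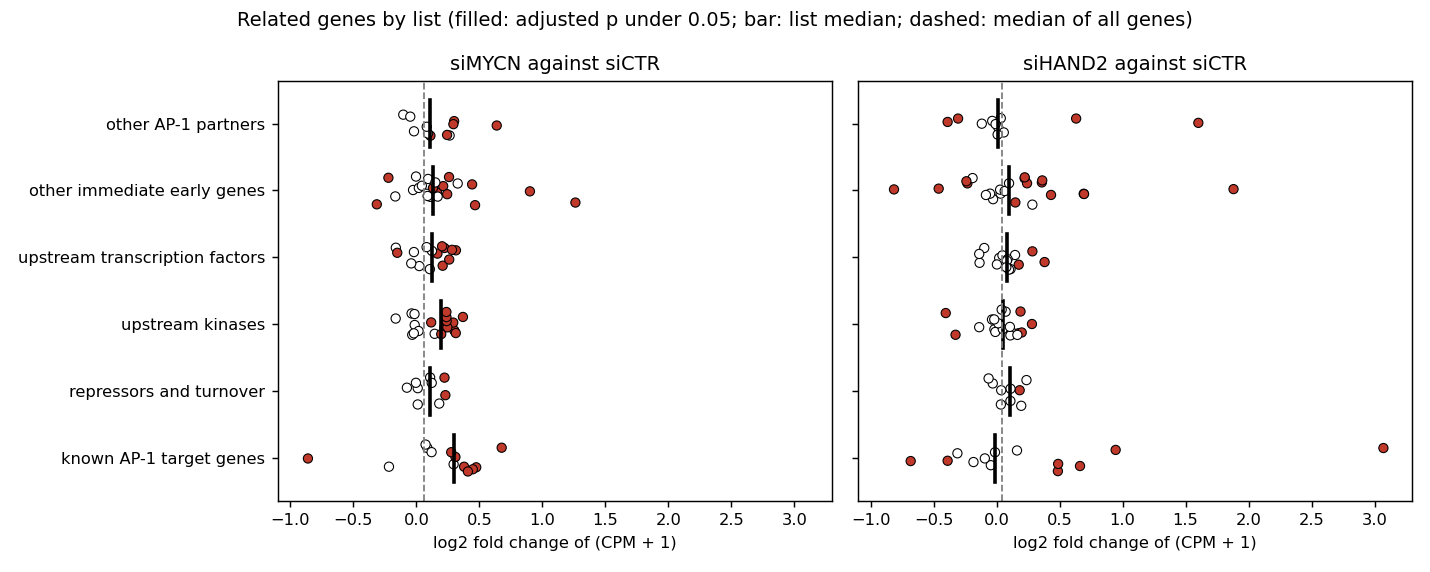
Log2 fold change of (CPM + 1) of the tested genes of 6 lists in siMYCN (left) and siHAND2 (right) against siCTR. Points are genes, spread vertically at random for legibility, filled where the adjusted p is under 0.05; the bar is the list's median and the dashed line the median of all tested genes (0.06 and 0.04). The kinase list has 11 filled points in siMYCN, all above 0, and 6 in siHAND2.

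Markers of other cell types stand here beside JUN and FOSL1. Of the 13 mesenchymal markers found in the table (FOSL1 among them), 9 were tested. In siMYCN 6 rose and 3 did not pass (24.5% of all genes higher; median 0.45, against 0.06). In siHAND2 7 rose and 1 fell (18.1% of all genes higher, 11.8% lower; median 0.98, against 0.04). The summed level of the 13 was 705 to 758 CPM in siCTR, 945 to 992 in siMYCN and 1365 to 1539 in siHAND2, of which VIM held a mean of 525, 696 and 1011 CPM. COL1A2 (log2 fold change 2.67), LUM (2.45) and PDGFRB (0.98) were among the 7 that rose in siHAND2, and CD44 (-0.39) was the 1 that fell. COL1A1, PRRX1, TAGLN and FOSL1 had means under 1 CPM in every group. In siCTR, siMYCN and siHAND2 these means were 0.72, 0.51 and 0.36 CPM for COL1A1 and 0.70, 0.38 and 0.49 for PRRX1. They were 0.97, 0.58 and 0.48 CPM for FOSL1 and 0.47, 0.75 and 0.52 for TAGLN. Of 9 tested neuroblastoma markers 8 rose in siMYCN (24.5% of all genes higher; median 0.38, against 0.06). In siHAND2 4 rose and 3 fell (18.1% of all genes higher, 11.8% lower; median -0.03, against 0.04), where DBH changed by -1.01 and NEFM by 1.39. The summed level of the neuroblastoma markers lay between 1286 and 1841 CPM over all libraries. Of the Schwann cell markers, S100B, SOX10 and ERBB3 had means under 1 CPM in every group, and PMP22 stood at 99.8, 150.3 and 33.1 CPM. None of the markers named here had a group mean under 0.1 CPM. The part of any such shift in the JUN, FOS or EGR1 values was not tested.

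The genes most like each factor in pattern were sought among 11201 genes that averaged 5 CPM or more, by Pearson correlation of log2(CPM + 1) over the 9 libraries, which share the group differences and the composition of each library. For JUN these were NCAN (r = 0.987), a brain proteoglycan gene, the neurofilament gene NEFM (0.978) and the Wnt receptor gene FZD2 (0.976). NCAN went from 29.7 ± 1.26 CPM in siCTR to 34.0 ± 1.53 in siMYCN and 44.3 ± 3.69 in siHAND2, the same order as JUN. For IER2 they were CHPF2 (0.991), RNF10 (0.963) and SLC4A3 (0.960), and for JUND AC025171.1 (0.985), CDK16 (0.982) and CDC42EP4 (0.970). For FOSL2 they were C2orf72 (0.945), PMVK (0.937) and GFOD1 (0.924), for ATF3 QSER1 (0.945), PIAS1 (0.940) and DNAJB14 (0.939), and for JUNB KPNA6 (0.893), NABP2 (0.865) and MVB12A (0.858). FOS and EGR1 lie under 5 CPM and were not searched; their correlation with each other was 0.851, and that of FOS with IER2 0.818.

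For many of the factors, libraries of a group also differed in step. In siMYCN replicate 2, 7 of the 8 tested factors lay below their group mean, with a median deviation of -0.08 on the log2 scale, and in siHAND2 replicate 3, 6 of 8 did, with a median of -0.14. In the other libraries that count ran from 1 of 8 (siHAND2 replicate 1) to 5 of 8 (siCTR replicate 2). In siHAND2 replicate 3 JUNB deviated by -0.21, JUND by -0.19, FOS and JUN by -0.16 each and FOSL2 by -0.13. There EGR1 deviated by -0.03, IER2 by 0.01 and ATF3 by 0.14. Over all tested genes the median deviation of siMYCN replicate 2 and siHAND2 replicate 3 was -0.0077 and 0.019. The share of all genes below their group mean was not counted. In siHAND2 replicate 3 the 1069 genes richest in G and C deviated by a median of -0.11 and the 1069 poorest by 0.10, and in siMYCN replicate 2 these were -0.03 and 0.01. The part of base composition in the deviations of the factors was not tested. Without siHAND2 replicate 3, JUN rose by 0.64 in siHAND2.

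**Figure D5:**
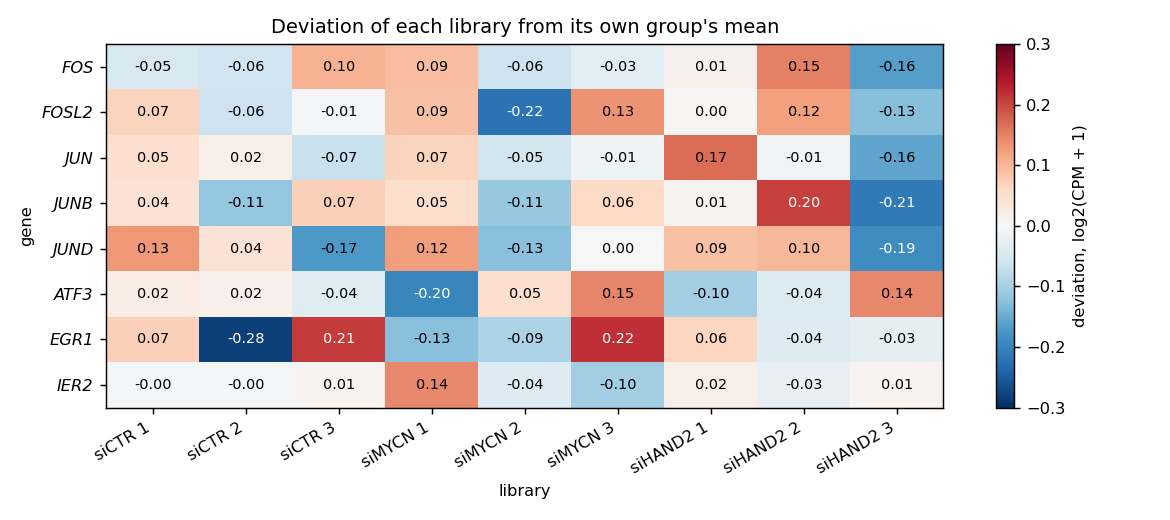
Deviation of each library from the mean of its own group, in log2(CPM + 1), for the 8 tested factors (rows) in the 9 libraries (columns); red is above and blue below the mean. Most factors are below their mean in siMYCN replicate 2 and siHAND2 replicate 3, where ATF3 is above it, as is IER2 by 0.01 in siHAND2 replicate 3.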

How the data were processed

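Total RNA of 9 LAN5 libraries was sequenced. Reads were aligned with STAR 2.5.1 and processed with Partek, per the submitters' processing notes, and the deposited values are CPM with a constant of 0.0001 added. The counting rule, strand use and filters are not given in the sources used here. The notes name hg19 and GRCh37, but of 18215 gene symbols shared with the GRCh38.p14 gene table of RefSeq, 8209 had the identical start and 91.4% lay within 5000 bp, so positions are given as GRCh38, counted from 1. Whole multiples of the smallest step (within 0.02 of a step) made up 79.4% to 80.9% of the low CPM values, under the 95% needed for a count test.

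Group means of log2(CPM + 1) were fitted by limma 3.58.1 (R 4.3.3) to the 9 libraries together (eBayes with an intensity trend, two-sided), for 14495 genes (10589 were left out). The code of the fit was run on simulated counts with planted changes. The simulated libraries were independent and had a fixed spread beyond counting error, so that run gives no error rates for these data. Transcript lengths, exons and GC content came from GENCODE v44lift37 by symbol, found for 88.9% of tested genes, with no coordinate used. Same-numbered libraries deviated together in both comparisons with siCTR (correlations from 0.102 to 0.216 with siMYCN and from 0.121 to 0.266 with siHAND2). With siHAND2 the pairing was less clean, as siCTR replicate 2 correlated more with siHAND2 replicate 1 (0.179) than with siHAND2 replicate 2 (0.121). The pairing was taken from the data, since no label says what the numbers mark, and a fit with the replicate number as a block was the alternative. The 10 factors and the gene lists were chosen with earlier results of these data known. Named from each list are up to 3 genes highest and 3 lowest per comparison among those called, averaging 5 CPM or more, with groups that do not overlap. Some genes of the lists are not reported here by name.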

Additional observations from a re-analysis of the deposited data

How the results depend on the processing

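The counts of factors called moved with the filter on low values. With at least 5 CPM in at least 3 libraries, FOS and EGR1 were not tested. The counts were then 2 in siMYCN against siCTR and 1 in siHAND2 against siMYCN, where 42.6% and 30.8% of all genes were called. With no filter, FOSL1 joined JUN and the count in siHAND2 against siCTR was 2, where 16.2% of all genes were called. Leaving out 1 library gave 3 to 5, 1 to 1 and 3 to 4 calls in the 3 comparisons. In these fits 27.7% to 40.3% of all genes were called in siMYCN against siCTR and 21.2% to 29.9% in siHAND2 against siCTR. Between the knockdowns the share was 26.9% in the main fit and 24.9% without siCTR replicate 1, which gave 3 calls. The shares of the other fits without 1 library are not given here for that comparison. With a replicate block the counts were 5, 1 and 6, where 40.7%, 35.1% and 32.3% of all genes were called. JUN joined in siMYCN against siCTR, and the block changed no other call of a factor against siCTR. Between the knockdowns the numbers were not taken as pairs, since same-numbered libraries deviated with correlations from -0.129 to 0.434 and siMYCN replicate 2 correlated best with siHAND2 replicate 3 (0.219), and there FOSL2, JUND and IER2 joined. Directions reversed only for values that did not pass the threshold in those settings: FOS in siHAND2 against siCTR with quantile normalization (-0.0297), and ATF3 in siMYCN against siCTR with median-ratio rescaling (-0.0192) and quantile normalization (-0.0485). Over the fits without 1 library, values that changed sign ranged as follows. Against siCTR in siMYCN, FOSL2 ranged from -0.0101 to 0.168, JUNB from -0.0865 to 0.0279 and ATF3 from -0.0433 to 0.127. Against siCTR in siHAND2, FOS ranged from -0.0209 to 0.137, JUNB from -0.208 to 0.000458 and EGR1 from -0.236 to 0.00910. Between the knockdowns, JUNB ranged from -0.179 to 0.0296 and ATF3 from -0.0485 to 0.122. The calls of FOS, EGR1 and IER2 in siMYCN, of JUN in siHAND2 and of FOS, EGR1 and JUN between the knockdowns held in every alternative that tested them. The cause of the other shifts was not tested. Counting reads at 1 CPM carries an error of 17.5% to 21.8% at these depths, which limits FOS, EGR1, FOSL1 and FOSB.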
